A study of Mus musculus with 6 samples.

Results

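The 8 genes described here, *Egr1*, *Egr2*, *Egr3*, *Nr4a1*, *Nr4a2*, *Nr4a3*, *Arc* and *Ier2*, are immediate early genes, and they were read out of 25166 genes in the RNA-seq table by their symbols. *Arc* was picked on the basis of its higher value in the Sirt6mKO libraries, so its difference between the groups is given as a description without a test. The other 7 were listed by function, with earlier results of these data known. The RNA came from freshly isolated muscle stem cells (MuSCs), which express PAX7, sit between a myofiber and its basal lamina and rebuild muscle after injury. 3 samples of Sirt6mKO and 3 of control MuSCs from C57BL/6 mice were compared, with 1 library per sample. In Sirt6mKO mice, Cre recombinase driven by *Pax7* (Pax7-ICN-Cre) removes floxed exons of *Sirt6*, which codes for a NAD-dependent histone deacetylase. Deletion is therefore expected in cells with a history of *Pax7* expression and not in other cells that pass the sort. The control animals are given as wild type in the labels and as *Sirt6* fl/fl littermates without Cre in the legend of the supplement, which also gives male mice of 12 weeks. By either account the controls lack Cre, so effects of the Cre allele and of the loss of *Sirt6* cannot be told apart, for *Pax7* as for other genes. No treatment or injury is named for either group. Cells were released from limb and trunk muscle with Dispase and collagenase and sorted as Sca1-/CD45-/CD31- cells that were positive for Integrin-a7 and CD34, or for YFP where the cross carried that reporter. Between 100 and 200 cells, with 1 to 5 ng of RNA, entered a library.

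Immediate early genes are transcribed within minutes of a stimulus without the need for new protein synthesis, through factors that already sit at their promoters, above all SRF with its ternary complex partners and CREB. EGR1, EGR2 and EGR3 are zinc finger transcription factors that bind the same GC-rich site, and NR4A1, NR4A2 and NR4A3 are orphan nuclear receptors that bind the NBRE element as monomers. ARC is best known from neurons, where it acts in the endocytosis of AMPA receptors, and IER2 is a nuclear regulator of transcription whose mode of action is less well known. In MuSCs, transcripts of this class are known to be abundant in freshly isolated cells and to rise while muscle is dissociated.

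The *Nr4a* genes are shown by sequence because they are one family and yet did not have the same values in these libraries. Promoter windows of RefSeq (GRCm38.p6, 250 bases before a start site and the 50 bases from it on, 300 bases in all) were at hand for 4 of the 8 genes, *Egr2*, *Nr4a1*, *Nr4a2* and *Nr4a3*. Each stretch below is on the strand of its gene and runs from the first base of the window to the last motif in it. Capitals mark half-sites of the cAMP response element (TGACG, or CGTCA on the other strand), and also an EGR site (GCGNGGGCG or its complement, *Nr4a1* and *Nr4a2*) and a TATA box (TATAAA, on the other strand in *Nr4a2*).
Nr4a1: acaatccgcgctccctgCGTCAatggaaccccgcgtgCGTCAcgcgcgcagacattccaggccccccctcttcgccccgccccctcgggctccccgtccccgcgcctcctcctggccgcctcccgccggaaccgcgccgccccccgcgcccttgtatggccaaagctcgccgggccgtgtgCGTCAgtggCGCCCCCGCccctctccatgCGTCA
Nr4a2: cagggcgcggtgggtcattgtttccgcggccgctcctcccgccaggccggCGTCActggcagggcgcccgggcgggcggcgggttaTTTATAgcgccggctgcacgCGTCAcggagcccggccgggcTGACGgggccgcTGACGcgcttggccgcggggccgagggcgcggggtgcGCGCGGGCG
Nr4a3: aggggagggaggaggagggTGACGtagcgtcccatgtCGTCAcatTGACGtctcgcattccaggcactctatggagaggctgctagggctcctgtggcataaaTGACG
The stretches lie at chr15:101266596-101266810 on the plus strand, chr2:57124069-57124253 on the minus strand and chr4:48045055-48045162 on the plus strand. All 3 windows hold 4 half-sites, whereas 0.252% of 27025 RefSeq promoter windows of the same length hold 4 or more, and 21.0% hold at least 1. In *Nr4a1* the half-site nearest to the start site begins 40 bases before it, in *Nr4a2* 111 bases and in *Nr4a3* 147 bases before it. An EGR site was found in 5.55% of all windows and a TATA box in 14.2%. The *Nr4a1* window belongs to a start site 12577 bases inside the gene as the table defines it, which includes a longer transcript. The *Egr2* window held none of the motifs searched, which also included the full element TGACGTCA, the NBRE (AAAGGTCA), the AP-1 site (TGANTCA) and the CArG box, all on both strands. Such matches describe the letters and say nothing of what binds there.

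The values are signal, the reads of a gene divided by a size factor of its library and rounded by the authors, so that libraries can be compared directly. The 6 libraries had total signals of 2272307 to 2369973, and the size factors recovered from the table place an estimated 1267027 to 3209958 reads behind them, with the fewest in control replicate 3. *Sirt6* itself had signals of 13 to 20 in Sirt6mKO and 17 to 20 in control libraries, and a value over the whole gene does not show whether the floxed exons are missing. *Pax7*, the marker that defines MuSCs, was present in every library, at 1810 to 2307 in Sirt6mKO and 3150 to 4066 in control libraries (log2 fold change -0.84, limma adjusted p = 0.0041). The 14 MuSC markers listed were all tested and summed to 18358 to 20953 in Sirt6mKO and 18712 to 22014 in control libraries, and their log2 fold changes had a median of -0.13, with 5 above 0. *Chrdl2* (-1.10) was lower past both thresholds, *Pax7* by adjusted p alone, and *Cd34*, named here after its values were seen, was higher by adjusted p alone (0.60, adjusted p = 0.031, and 0.088 to 0.14 without control replicate 1 or Sirt6mKO replicate 2 or 3). The 5 committed myogenic markers listed summed to 114 to 232 in Sirt6mKO and 264 to 416 in control libraries. None of the 4 tested had a log2 fold change above 0, and the median was -1.04. *Myod1* was lower by adjusted p alone (-0.86, limma adjusted p = 0.045), beside 1.88% of all tested genes. *Myog*, at 22 to 139 against 107 to 208, did not pass (limma adjusted p = 0.15). In such bulk samples, fewer cells of a type and less RNA per cell cannot be told apart. Nothing in the labels says more about where the replicates came from, and the p-values measure the spread between these samples.

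*Egr1* was by far the most abundant of the 8 genes, and with *Egr2* and *Ier2* it passed an adjusted p of 0.05 for a higher signal in Sirt6mKO MuSCs. All Sirt6mKO libraries also exceeded all control libraries in *Nr4a1* and *Arc*. The groups overlapped for *Egr3*, *Nr4a2* and *Nr4a3*, which did not pass the test, although *Egr3* had a log2 fold change of 1.28 on few reads. Among the 7 genes that were not picked for their values, the log2 fold change was positive for 6 and negative for 1, and its median was 0.69 against 0.0019 over the 14227 genes tested. These 7 genes were listed with earlier results of these data known, so the shares beside them describe the set and do not test it. By adjusted p alone 3 of these 7 genes were higher and none was lower, beside 2.64% of all tested genes that were higher and 1.88% that were lower. With a 2-fold minimum as a second threshold, *Egr2* was the only one of the 7 that remained higher, and none was lower, beside 1.57% and 1.02% of all tested genes. For 4 of the 7 genes the Sirt6mKO libraries all lay above the control libraries and for none did they all lie below, which was so for 11.1% and 10.1% of all tested genes. With 3 libraries a group, an exact permutation test of a single gene cannot give a p below 0.1.

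**Figure D1:**
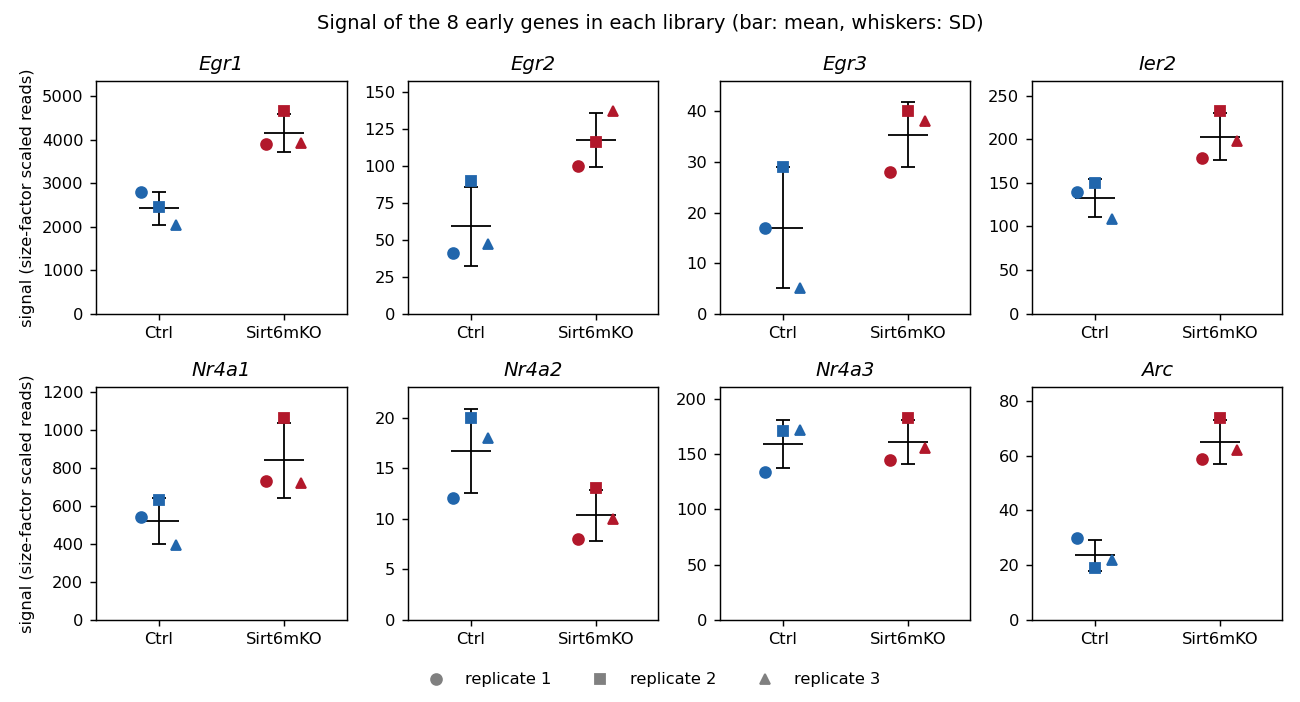
Signal (size-factor scaled reads, linear axis from 0) of the 8 genes in each library, with blue points for control, red points for Sirt6mKO, a symbol for each replicate number, and mean and SD of 3 libraries in black. The groups are apart for *Egr1*, *Egr2*, *Ier2*, *Nr4a1* and *Arc*, whereas they overlap for *Egr3*, *Nr4a2* and *Nr4a3*.

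*Egr1* (ENSMUSG00000038418, GRCm38 chromosome 18, 34859823 to 34864984, plus strand) codes for the EGR factor that growth factors and mechanical stress induce in most cell types. In Sirt6mKO replicates 1, 2 and 3 it reached signals of 3897, 4646 and 3912, whereas control replicates 1, 2 and 3 reached 2788, 2446 and 2026, and this order of replicates holds for all values given below. The lowest Sirt6mKO library was 1.40 times as high as the highest control library. The means were 4152 ± 428 and 2420 ± 382 (SD, n = 3 each), and the log2 fold change on log2(signal + 1) was 0.79 ± 0.14 (SE, limma adjusted p = 0.0062). By mean signal *Egr1* ranked 37th of the 14227 tested genes. Its difference did not depend on a single library, as the adjusted p stayed between 0.0024 and 0.046 under all 16 alternatives, the left-out libraries included. Among the 951 tested genes whose mean signal was 500 or more, the middle 90% of log2 fold changes ran from -0.35 to 0.50.

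*Egr2* (ENSMUSG00000037868, chromosome 10, 67535475 to 67542188, plus strand), known for its part in the myelination of peripheral nerves, was expressed at a far lower level. Sirt6mKO libraries had signals of 100, 116 and 137, and control libraries 41, 90 and 47. The groups did not overlap, but control replicate 2 came close to the lowest Sirt6mKO library. The means of 118 ± 18.6 and 59.3 ± 26.7 differed by a log2 fold change of 1.05 ± 0.25 (SE, limma adjusted p = 0.035). This call was lost when any library other than control replicate 2 was left out, with adjusted p of 0.10 to 0.14, whereas without control replicate 2 the log2 fold change was 1.39 (adjusted p = 0.0049). It was also lost without the filter on low values (adjusted p = 0.067) and by voom on recovered reads (0.054).

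*Egr3* (ENSMUSG00000033730, chromosome 14, 70077203 to 70082614, plus strand), which is needed for the formation of muscle spindles, had signals of 28, 40 and 38 in Sirt6mKO and 17, 29 and 5 in control libraries. Control replicate 2 was above Sirt6mKO replicate 1, and the signal of 5 in control replicate 3 rests on an estimated 3 reads. An exact Poisson interval (95%) for it ran from 1.11 to 15.7 and covers counting error only. The log2 fold change of 1.28 ± 0.47 (SE) had the largest error of the 8 genes and did not pass the test (adjusted p = 0.16). Within the family the shares of the groups overlapped. Per kb of exon, *Egr1* made up 94.7 to 96.1% of the summed *Egr1*, *Egr2* and *Egr3* signal in Sirt6mKO libraries and 94.3 to 97.5% in control libraries. The share of *Egr2* was 3.16 to 4.38% against 1.89 to 4.58%, and that of *Egr3* 0.70 to 0.94% against 0.24 to 1.14%.

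*Nr4a1* (ENSMUSG00000023034, chromosome 15, 101254269 to 101274795, plus strand), a receptor linked to glucose metabolism in muscle, was the most abundant *Nr4a* gene. Sirt6mKO libraries had signals of 733, 1066 and 720, and control libraries 542, 631 and 393. All Sirt6mKO libraries lay above all control libraries, the nearest pair being Sirt6mKO replicate 3 and control replicate 2. The log2 fold change of 0.69 ± 0.18 (SE) had an adjusted p of 0.054 and thus just missed the threshold. Under 6 of 16 alternatives it passed, and without Sirt6mKO replicate 2, the library with the highest value, it was 0.50 with an adjusted p of 0.23.

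*Nr4a3* (ENSMUSG00000028341, chromosome 4, 48045153 to 48086447, plus strand) had nearly the same signal in both groups, 145, 183 and 155 in Sirt6mKO and 134, 171 and 172 in control libraries. The means were 161 ± 19.7 and 159 ± 21.7, and the log2 fold change was 0.02 ± 0.15 (SE, adjusted p = 0.97), which turned to -0.10 without control replicate 1 and to -0.075 without Sirt6mKO replicate 2. *Nr4a2* (ENSMUSG00000026826, chromosome 2, 57106830 to 57124003, minus strand), needed for dopaminergic neurons of the midbrain, was the rarest of the 8 genes in Sirt6mKO MuSCs. It had signals of 8, 13 and 10 in Sirt6mKO and 12, 20 and 18 in control libraries, on an estimated 10 to 27 reads per library. Sirt6mKO replicate 2 overlapped with control replicate 1, and the log2 fold change of -0.63 ± 0.35 (SE) did not pass the test (adjusted p = 0.37).

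The 3 *Nr4a* genes can be set against each other within a library, where its size factor cancels out. The ratio of *Nr4a1* to *Nr4a3* signal was 5.06, 5.83 and 4.65 in Sirt6mKO libraries and 4.04, 3.69 and 2.28 in control libraries. The ratio of *Nr4a1* to *Nr4a2* was 91.6, 82.0 and 72.0 against 45.2, 31.5 and 21.8. For both ratios the Sirt6mKO libraries all exceeded the control libraries (two-sided exact permutation p = 0.1 each, the smallest that 3 against 3 allows, and 0.25 after adjustment over the 5 ratios tested). Per kb of exon, *Nr4a1* accounted for 87.9 to 90.0% of the family's summed signal in Sirt6mKO and 77.2 to 85.9% in control libraries. The share of *Nr4a3* was 9.06 to 11.1% against 12.5 to 19.8%, and that of *Nr4a2* 0.84 to 1.06% against 1.64 to 3.06%. A higher share of *Nr4a1* lowers the other shares, and the mean signal of *Nr4a3* itself was 161 against 159. The *Nr4a2* values rest on an estimated 10 to 27 reads per library.

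*Nr4a1* and *Egr1*, by contrast, kept a similar ratio. There were 188, 229 and 184 units of *Nr4a1* signal per 1000 units of *Egr1* in Sirt6mKO and 194, 258 and 194 in control libraries (exact permutation p = 0.5, adjusted 0.5). For *Ier2* the ratio to 1000 units of *Egr1* was 45.9, 49.9 and 50.6 against 49.9, 61.3 and 53.3 (exact permutation p = 0.3, adjusted 0.5), and for *Egr2* it was 25.7, 25.0 and 35.0 against 14.7, 36.8 and 23.2 (exact permutation p = 0.5, adjusted 0.5). The groups overlapped in each of these 3 ratios, which at 3 libraries a group does not show that the genes moved by equal amounts.

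**Figure D2:**
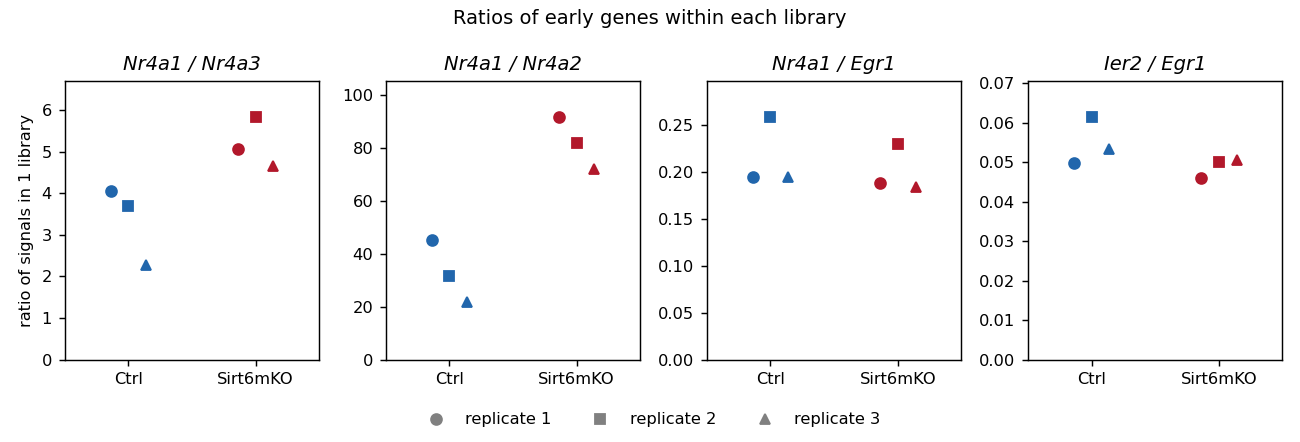
Ratio of the signals of 2 genes within the same library (linear axes from 0), blue for control and red for Sirt6mKO, with a symbol for each replicate number and no error bars. The ratios of *Nr4a1* to *Nr4a3* and to *Nr4a2* do not overlap between the groups, with 4.65 to 5.83 above 2.28 to 4.04 for the first, whereas the ratios of *Nr4a1* and *Ier2* to *Egr1* overlap.

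*Ier2* (ENSMUSG00000053560, chromosome 8, 84661331 to 84662854, minus strand) had signals of 179, 232 and 198 in Sirt6mKO and 139, 150 and 108 in control libraries. No control library reached the lowest Sirt6mKO library. The means of 203 ± 26.9 and 132 ± 21.8 gave a log2 fold change of 0.62 ± 0.16 (SE, limma adjusted p = 0.042). As for *Egr2*, any left-out library other than control replicate 2 ended this call, with adjusted p of 0.063 to 0.20 and log2 fold changes of 0.48 to 0.71, and without control replicate 2 it held at 0.72 (adjusted p = 0.049). It was lost, too, without the filter on low values (adjusted p = 0.077).

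*Arc* (ENSMUSG00000022602, chromosome 15, 74669083 to 74672570, minus strand) had signals of 59, 74 and 62 in Sirt6mKO and 30, 19 and 22 in control libraries, on an estimated 66 to 99 and 12 to 26 reads. Its lowest Sirt6mKO value was 1.97 times its highest control value, the widest gap among the 8 genes. The mean signals were 65.0 ± 7.94 and 23.7 ± 5.69, and the log2 fold change was 1.44 ± 0.23 (SE), higher than that of 98.1% of the tested genes. Since this rise is what *Arc* was chosen for, it supports nothing further. The value ranged from 1.30 to 1.61 over 15 alternatives, at its lowest without control replicate 2 and at its highest without control replicate 1. Relative to 1000 units of *Egr1*, *Arc* had 15.1, 15.9 and 15.8 units in Sirt6mKO and 10.8, 7.77 and 10.9 in control libraries. Of markers of neurons, the cells in which *Arc* is best studied, 2 of 7 were among the genes of the table, and their summed signal was 0 to 6 per library.

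**Figure D3:**
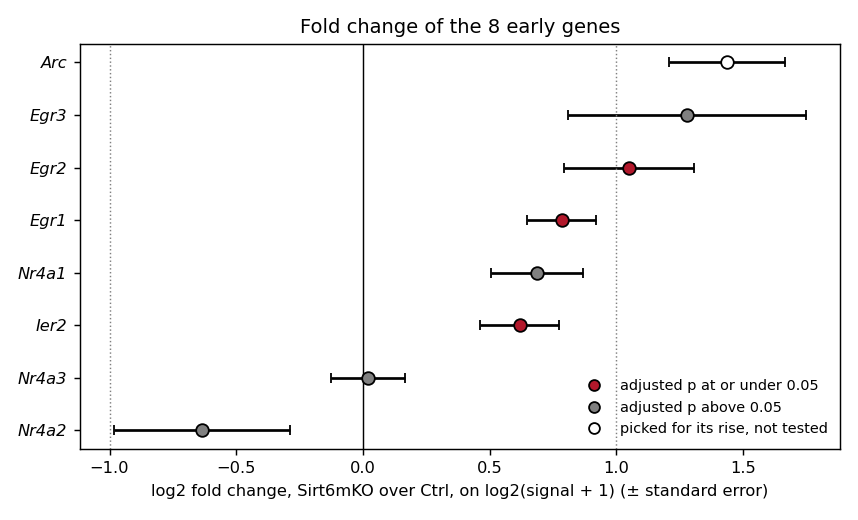
Log2 fold change (Sirt6mKO over control, on log2(signal + 1)) of the 8 genes with its standard error from limma, red for an adjusted p of at most 0.05, grey for one above it and white for *Arc*, which was not tested. Dotted lines mark 2-fold, and *Egr2* at 1.05 is the only red point beyond them, while *Nr4a2* lies at -0.63.

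Compared per kb of annotated exon, which puts genes of different length on one scale, the order of the levels in Sirt6mKO libraries was *Egr1* (926), *Nr4a1* (239), *Ier2* (133), *Egr2* (34.6), *Nr4a3* (26.9), *Arc* (21.3), *Egr3* (8.02) and *Nr4a2* (2.55). Of neighbours in this order, *Egr2* and *Nr4a3* overlapped between libraries and the others did not. In control libraries the order was *Egr1* (540), *Nr4a1* (149), *Ier2* (86.9), *Nr4a3* (26.6), *Egr2* (17.5), *Arc* (7.74), *Nr4a2* (4.11) and *Egr3* (3.86). There *Nr4a3* overlapped with *Egr2*, and *Nr4a2* with *Egr3*. The places of *Egr2* and *Nr4a3*, and of *Egr3* and *Nr4a2*, thus differed between the groups.

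The 8 genes also varied between the libraries of a group, in Sirt6mKO libraries largely together. Sirt6mKO replicate 2 had the highest value of its group for 7 of the 8 genes and the highest of all 6 libraries for 6 of them. Sirt6mKO replicate 1 was the lowest of its group for 7 genes. The order was less shared among control libraries. Control replicates 1, 2 and 3 were the highest of their group for 2, 5 and 1 genes and the lowest for 3, 1 and 4. On the log2 scale, the median difference of the 8 genes from the control mean was 0.61, 1.00 and 0.65 for the Sirt6mKO libraries and 0.08, 0.24 and -0.24 for the control libraries. Without *Arc*, which was picked for its rise, it was 0.52, 0.95 and 0.59 for Sirt6mKO and 0.08, 0.28 and -0.24 for control libraries. Control replicate 3, the library with the fewest reads, had the lowest value of all 6 libraries for 4 genes.

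Markers of other cells also varied between the libraries, and not in one order. Sirt6mKO replicate 2 had the highest summed signal of 5 tenocyte markers, at 1045, and replicates 1 and 3 had 60 and 397, against 49 to 71 in control libraries. The sums of replicates 2 and 3 were carried mostly by *Thbs4* (14, 508 and 191 against 15, 16 and 7) and *Fmod* (11, 481 and 163 against 11, 17 and 7). All 5 were tested and none passed the adjusted p (limma). A log2 fold change above 0 was found for 4, and *Mkx*, named here after its values were seen, had -1.12. The 14 myofiber markers, led by *Acta1*, which codes for skeletal muscle actin, and including *Mylpf*, a fast myosin light chain, summed to 2210, 2397 and 820 in the Sirt6mKO libraries and to 680 to 801 in control libraries, and 12 of the 13 tested had a log2 fold change above 0, with a median of 1.46. *Acta1* (1.71, adjusted p = 0.035) and *Mylpf* (2.15, adjusted p = 0.018) passed both thresholds, beside 1.57% of all tested genes, and neither did by voom (adjusted p = 0.064 and 0.056). The call of *Acta1* held without Sirt6mKO replicate 3 and was lost without any other library (adjusted p of 0.074 to 0.21) or with robust empirical Bayes (0.30), and that of *Mylpf* was lost without Sirt6mKO replicate 1 or 2 or control replicate 2 (0.071 to 0.14). The 9 fibroblast markers summed to 12035 to 13566 in Sirt6mKO and 8804 to 13215 in control libraries, sums carried mostly by *Col3a1*, a collagen gene at 6685 to 8461 and 5795 to 8595. *Gsn* added 3166 to 3375 and 2312 to 3170. *Pdgfra* was at 14 to 38 and 2 to 9, and *Ly6a* and *Mfap5*, named here after their values were seen, at 0 to 4 in every library. All 7 fibroblast markers tested had a log2 fold change above 0, with a median of 1.33, and *Pdgfra* (2.16, adjusted p = 0.027) and *Col1a1* (1.94, adjusted p = 0.047) passed both thresholds, beside the same 1.57%. Both calls also held by voom and were lost without any library other than control replicate 1 (adjusted p of 0.057 to 0.22), that of *Col1a1* also with robust empirical Bayes (0.35). Over the settings other than left-out libraries, *Col1a1* passed the adjusted p in 6 of 10 and *Pdgfra* in 8 of 9. Endothelial markers, 7 of 8 in the table, summed to 373 to 451 and 467 to 574. These sums were carried mostly by *Tek*, at 349 to 412 and 430 to 562 (log2 fold change -0.35, limma adjusted p = 0.16). *Pecam1*, the other of the 2 tested, had 22, 27 and 24 against 11, 4 and 29 (1.05, limma adjusted p = 0.30). *Cdh5*, *Kdr*, *Flt1*, *Egfl7* and *Cldn5*, named here after their values were seen, had signals of 0 to 7 in every library. The sums were 93 to 177 and 118 to 126 for 6 mural markers and 134 to 184 and 169 to 222 for 7 Schwann cell markers. For 4 of 10 immune markers they were 38 to 79 and 36 to 65, and for 5 erythroid markers 13 to 60 and 23 to 545. None of the markers in the table was at 0 in every library. The part of these cells in the values of the 8 genes was not tested.

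Other immediate early genes leaned the same way as the *Egr* genes. Their list was also made with earlier results of these data known, so the shares beside it describe it and do not test it. Of 45 listed, 42 were in the table and 40 were tested, and 34 of the 40 had a log2 fold change above 0, with a median of 0.35. By adjusted p alone 7 were higher and none was lower (limma, with 20 of the 40 at an unadjusted p under 0.05 and 8 at the adjusted p by voom on recovered reads), beside 2.64% and 1.88% of all tested genes and 2577 of 14227 at an unadjusted p under 0.05. In 16 genes every Sirt6mKO library lay above every control library, and in 1 gene, *Crem*, below, beside 11.1% and 10.1% of all tested genes. *Fos* and *Jun*, whose products pair as the AP-1 dimer and were the most abundant of the list per kb, had log2 fold changes of 0.75 ± 0.14 and 0.80 ± 0.13 (SE, adjusted p = 0.0081 and 0.0047). For *Fos* the signals were 3442, 3757 and 4355 against 1951, 2632 and 2302. Like *Egr2* and unlike the other 7 genes described above, *Fos* and *Jun* were highest in Sirt6mKO replicate 3, with *Jun* at 5182.

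The only gene of this list past both thresholds was *Ier3*, a gene of stress and survival signalling, with 47, 51 and 53 against 30, 19 and 25 and a log2 fold change of 1.02 ± 0.23 (adjusted p = 0.026), a call that was lost without control replicate 2 or without any one Sirt6mKO library (adjusted p of 0.079 to 0.12). The remaining 4 at the adjusted p, named here after their values were seen, were *Junb* (0.85), *Socs3* (0.85), *Klf4* (0.87) and *Klf6* (0.45, a call that held without control replicate 3 and was lost without any other library, adjusted p of 0.055 to 0.16), coding for an AP-1 subunit, an inhibitor of cytokine signalling and 2 Krüppel-like factors. *Crem*, also named after its values were seen, codes for activators and repressors at cAMP response elements, among them the early repressor ICER. It had signals of 78, 72 and 75 in Sirt6mKO and 119, 99 and 113 in control libraries, and its log2 fold change of -0.55 ± 0.15 (SE) did not pass the test (adjusted p = 0.059).

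**Figure D4:**
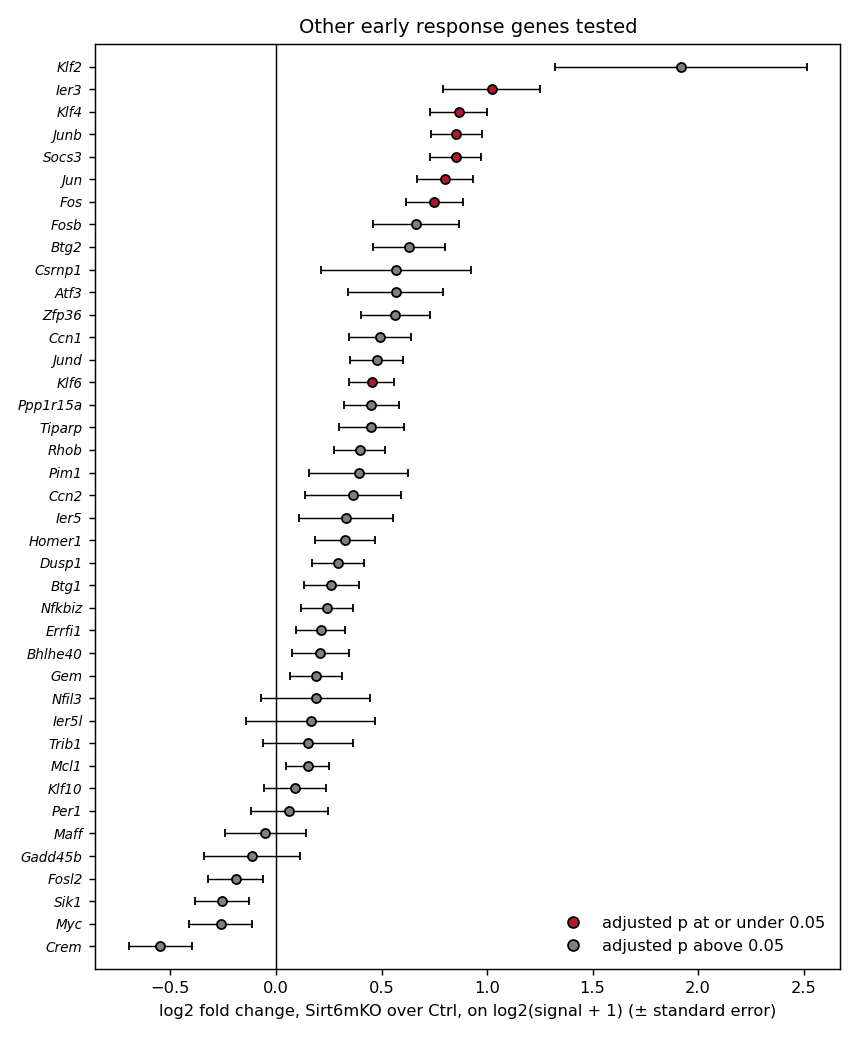
Log2 fold change (Sirt6mKO over control, on log2(signal + 1), x axis) with its standard error for the 40 other early response genes tested, ordered by value along the y axis, with red points for an adjusted p of at most 0.05 and grey points above it. Points lie right of 0 for 34 of the 40 genes, and all 7 red points do.

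The factors and kinases that act on immediate early promoters were mostly alike in both groups. Of 25 listed, 24 were tested, and 14 had a value above 0, the median being 0.01 on the log2 scale. None passed both thresholds (limma, 3 at an unadjusted p under 0.05, none by voom). *Mef2a*, a MADS box factor of muscle named here after its values were seen, was the only one higher by adjusted p alone, at 399, 339 and 449 against 240, 205 and 269 (log2 fold change 0.73 ± 0.14, SE, adjusted p = 0.011, which was 0.072 without Sirt6mKO replicate 1). *Srf*, coding for the factor that binds the CArG box and likewise named after its values were seen, had signals of 141, 153 and 109 against 82, 98 and 102 (0.50 ± 0.16, adjusted p = 0.12). The 2 most abundant per kb, the coactivator gene *Crebbp* and the ternary complex factor gene *Elk4*, had log2 fold changes of 0.01 and 0.15 (adjusted p = 0.98 and 0.54).

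Of 12 genes for partners and inhibitors of the proteins, 10 were tested, their log2 fold changes had a median of -0.06, and none passed both thresholds (limma, 1 at an unadjusted p under 0.05, none by voom). *Nab2*, a corepressor that EGR factors induce and that then limits them, was higher by adjusted p alone. It had 156, 154 and 154 against 92, 79 and 120, with a log2 fold change of 0.69 ± 0.16 (SE, adjusted p = 0.031), and the adjusted p rose to 0.072 to 0.14 without any one library other than control replicate 3. Its relative *Nab1* had 253 to 310 against 284 to 375 (-0.14 ± 0.14, adjusted p = 0.66), and the phosphatase subunit gene *Ppp2r2a* had 321 to 364 against 293 to 316 (0.16 ± 0.11, adjusted p = 0.49).

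Among 6 genes known as targets of EGR factors, *Nab2* included, 5 were tested with a median of 0.65, and *Nab2* alone passed the adjusted p (limma, 2 at an unadjusted p under 0.05, 1 at the adjusted p by voom). *Vegfa*, coding for an angiogenic growth factor, had 338, 324 and 239 against 418, 256 and 219 (0.05 ± 0.21, adjusted p = 0.93). Of 7 genes of glucose metabolism known as NR4A targets in muscle, 5 were tested with a median of 0.32, and none passed the adjusted p (limma, 2 at an unadjusted p under 0.05, none by voom). *Pygm*, coding for muscle glycogen phosphorylase, had 250, 284 and 224 against 336, 387 and 287 (-0.41 ± 0.14, adjusted p = 0.13), and *Pfkm*, coding for muscle phosphofructokinase, had 136, 133 and 127 against 96, 91 and 133 (0.32 ± 0.16, adjusted p = 0.32).

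Heat shock genes, which like immediate early genes are known to respond to the handling of cells, were 9 in number and all tested. Their median log2 fold change was 0.20, 8 were above 0, and none passed both thresholds (limma, 3 at an unadjusted p under 0.05, none by voom). Summed, they had signals of 28762, 25859 and 21146 in Sirt6mKO and 20766, 22874 and 17826 in control libraries, so the groups overlapped. *Hsph1*, a co-chaperone gene named here after its values were seen, was higher by adjusted p alone (0.71 ± 0.15, adjusted p = 0.015, and 0.088 to 0.096 without Sirt6mKO replicate 1 or 2). The most abundant per kb, *Hspa1a* and *Hspa1b*, had 0.19 ± 0.19 and 0.42 ± 0.17 (adjusted p = 0.67 and 0.22). The sources used here give no time between dissection and lysis for any sample, and the part of handling in the values was not tested.

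The genes whose pattern over the 6 libraries was most like that of *Arc* or *Egr1* were found from the root mean square difference of log2(signal + 1) after centring each gene, over the 14227 tested genes. Such likeness rests on 6 libraries that share their depth and groups. Nearest to *Arc* were *Sox6*, *4930518P08Rik*, *Rab7b*, *Grk3* and *Gm39929*, with differences of 0.15 to 0.18. *Sox6*, coding for a transcription factor that represses slow fiber genes, had signals of 129, 213 and 175 in Sirt6mKO and 77, 57 and 65 in control libraries. *Egr1* came 173rd, *Ier2* 525th and *Nr4a1* 581st in likeness to *Arc*. Nearest to *Egr1* were *Plekhh2*, *Hunk*, *Pink1*, *Acvr2a* and *Itpr3*, with differences of 0.065 to 0.083. *Plekhh2* had 201, 229 and 207 against 141, 117 and 111, and *Pink1*, which codes for a kinase of mitochondrial quality control, had 380, 438 and 387 against 267, 256 and 224. *Ier2* was 25th and *Nr4a1* 91st in likeness to *Egr1*, whereas *Arc* was 2257th and *Egr2* 4502nd.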

How the data were processed

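The RNA-seq libraries of sorted MuSCs, 3 Sirt6mKO and 3 control, were grouped by the labels. According to the submitters' processing notes and the methods, the authors aligned reads to mm10 with STAR, counted them per gene with featureCounts and used DESeq2. Whether counting used the strand is not given in the sources used here. The labels name RiboGone and SMARTer stranded kits (NextSeq500, 75 bases, single end), whereas the methods name RiboMinus and Ion Total RNA-Seq kits. The deposited values are a signal: reads divided by a size factor and rounded by the authors. The factors (0.558 to 1.37) were estimated from the spacing of low values, so that 1 read is worth 0.729 to 1.79, and estimated reads and intervals cover counting error only. Gene positions are those of the table (GRCm38), and exon lengths came from GENCODE M21, which held 99.7% of the gene identifiers. A search for annotated genes that overlap one of the 8 returned none, and whether the search could find an overlap was not checked.

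The limma-trend method (limma 3.58.1, R 4.3.3) was applied to log2(signal + 1) of the 14227 genes whose mean signal was 5 or more, without further scaling, and p-values were adjusted by Benjamini-Hochberg over all of them. The 2 thresholds were an adjusted p of no more than 0.05 and a change of 2-fold or more. The procedure was tested on simulated data. Tables and exact tests were made in Python 3.11.15 (numpy 2.4.6, pandas 2.3.3, scipy 1.17.1) and plots with matplotlib 3.10.9. The 8 genes and all lists were chosen with earlier results of these data known. Beside the 8, the genes named are *Sirt6*, *Pax7*, up to 3 genes past both thresholds and the 2 most abundant per kb of each list where the list is described by its genes, and the 5 genes most like *Arc* and *Egr1*; others are said to be named after their values were seen. Marker lists are given by their sums, with genes named only where the sum does not describe the list. Alternatives changed 1 choice at a time: scaling, filter, pseudocount, empirical Bayes, voom on recovered reads, the replicate number as a block, thresholds and each left-out library.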

Additional observations from a re-analysis of the deposited data

How the results depend on the processing

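Without a filter on low values, with a pseudocount of 5, by voom on recovered reads or at an adjusted p of at most 0.01, 0 of the 7 genes passed both thresholds in place of 1. Over left-out libraries this count was 0 to 1, and 1 only without control replicate 2. By adjusted p alone 3 of the 7 passed in the main fit. That number was 1 without the filter, 4 with a pseudocount of 5 and 3 by voom. It was 4 without control replicate 2 and 1 without any other library. The genes higher past both thresholds numbered 223 and those lower 145. They were 76 and 52 among genes whose mean signal was 50 or more, 376 and 267 by adjusted p alone, 93 and 77 at an adjusted p of at most 0.01, and 97 to 291 and 84 to 152 over left-out libraries. By over 1.5 times, the first fell to 101 and 97 without Sirt6mKO replicate 1 or 2, and the second to 84, 96 and 90 without Sirt6mKO replicate 1 or 2 or control replicate 2. *Egr1*, *Egr2*, *Nr4a1*, *Ier2* and *Egr3* stayed above 0 and *Nr4a2* below 0 under every alternative run for them, and a mean of at least 50 removed *Egr3*, *Nr4a2* and *Arc* from the fit.

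Changes of sign were found only near 0. Over left-out libraries, *Nr4a3* ranged from -0.10 (without control replicate 1) to 0.0919, with -0.075 without Sirt6mKO replicate 2, *Sirt6* from -0.21 to 0.0871 (without Sirt6mKO replicate 3), *Col3a1* from -0.0871 (without control replicate 3; also below 0 without Sirt6mKO replicate 3) to 0.1972, *Hspa1a* from -0.0135 (without control replicate 3) to 0.37, *Vegfa* from -0.14 to 0.33 (below 0 without control replicate 2 or 3 or Sirt6mKO replicate 1 or 2) and *Crebbp* from -0.0545 to 0.0677 (below 0 without control replicate 1 or Sirt6mKO replicate 2). *Crebbp* was also -0.0095 with equal totals, -0.0061 with upper quartile scaling and -0.0069 by voom. The cause was not tested.

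Same-numbered Sirt6mKO and control libraries correlated in their deviations at 0.02, 0.07 and 0.19, and not every library correlated best with its own number, so the numbers are not taken as pairs. With the replicate number as a block, 268 genes were higher and 167 lower, 1 of the 7 passed both thresholds and 4 passed the adjusted p, with *Nr4a1* added (adjusted p = 0.0064). Depth limits *Nr4a2* and *Egr3* most.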
